A study of Mus musculus with 2 samples.

Results

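Monocytes low in C1q were followed in single-cell RNA profiles of subcutaneous mouse tumours grown under 2 diets. A cell was kept if it had 500 or more UMIs (unique molecular identifiers, tags that each mark 1 captured RNA molecule) from 300 or more genes, with no more than 20% of them mitochondrial. A kept cell was a member when it had at least 1 Lyz2 UMI, at least 2 UMIs of Ccr2, Vcan, F10 and Thbs1 together, and at most 1 UMI of C1qa, C1qb and C1qc together. It also had to have 0 UMIs of Cd3e, Xcr1 and Siglech, at most 3 of Hmga2 and Rhox5 together, and fewer than 100 UMIs of S100a8 and S100a9 per 10000. The rule found 1019 of 34471 kept cells, 478 of 14159 under the control diet and 541 of 20312 under the diet free of serine and glycine. Since members were chosen by UMIs of these genes in these same cells, the levels of its genes are descriptions and not results.

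The control group received a control diet and the other group a diet free of serine and glycine (SG-free below), 2 amino acids that cells can also make themselves. Each diet was represented by 1 library, so no difference below has a replicate check, no test was possible, and every interval is a 95% interval that covers counting error only. The sources used here do not give the mouse strain, its age and sex, the tumour line, the time on the diet, or how many mice a library holds. The labels describe the samples as mouse tumour, whereas their protocol text speaks of human heart tissue, so the dissociation details may belong to another study.

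Monocytes are blood leukocytes that enter tissues through the chemokine receptor CCR2 and there turn into macrophages or dendritic-type cells. On that path classical monocytes lose Ly6c2 and Plac8 and gain complement C1q, Apoe and lysosomal genes. In tumours they respond to interferon-gamma from T and natural killer cells with MHC class II, guanylate-binding proteins and CXCL9. Under hypoxia or tissue damage they make matrix and repair factors such as osteopontin (Spp1), fibronectin (Fn1) and arginase (Arg1).

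The 1019 cells carried monocyte genes that the rule had not used. Ms4a4c, an interferon-inducible gene of classical monocytes, stood at 506 CPM (UMIs of the gene per 1000000 UMIs of the class) in the control library and 662 CPM in the SG-free library, against 228 and 255 CPM in C1q macrophages. Il1b, the gene of interleukin-1 beta, stood at 1400 and 1312 CPM, against 317 and 292 CPM in C1q macrophages and 6.22 and 10.4 CPM in tumour cells. The other 4 marker genes behind the name, Ccr2, Vcan, Thbs1 and F10, belong to the rule and are no check of it. Ms4a4c and Il1b are also markers behind the name, taken from these same data, so they are no independent check either. C1q macrophages here are Lyz2-positive cells with at least 5 C1q UMIs that pass the same exclusions (976 and 1257 cells), and tumour cells have at least 10 UMIs of Hmga2 and Rhox5. Il1b is not particular to monocytes: neutrophil-type cells, those with at least 100 UMIs of S100a8 and S100a9 per 10000 (99 and 108 cells), held 12489 and 14284 CPM of it.

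A few cells of other kinds also passed the rule. A marker list of fibroblasts, endothelial cells, T cells, natural killer cells or tumour cells reached 50 of 10000 UMIs in 25 of 478 control members (5.23%, 3.41 to 7.62) and 39 of 541 members from the SG-free diet (7.21%, 5.18 to 9.72). The fibroblast list did so in 12 and 16 cells, the natural killer cell list in 12 and 17, the tumour list in 9 and 9, the endothelial list in 2 and 6, and the T cell list in 1 and 3. These cells were deep, with median totals of 6907 and 4500 UMIs against 3106 and 2020 UMIs for all members. They held most of the fibroblast RNA: the summed fibroblast list was 2190 and 3310 CPM over all members and 169 and 83.7 CPM without them. The natural killer list stood at 553 and 746 CPM with them and 17.3 and 27.6 CPM without. No dendritic cell list was used to find such cells. A list of 8 genes of type 2 conventional dendritic cells summed to 500 and 420 CPM in all members and 631 and 589 CPM in C1q macrophages. Of 4 measured genes of monocyte-derived dendritic cells, 3 were higher than in C1q macrophages in both libraries and 1 lower. The part of dendritic cells in the results below was not tested. Values are given for all members, and those of the remaining 453 and 502 cells stand beside them where they differ.

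Total UMIs over the members were 1677122 and 1308283. Median depth per kept cell was 11512 and 7570 UMIs in the libraries as a whole. The libraries shared 87 barcodes, of which 3 control members and 2 members from the SG-free diet carried one, and no barcode was a member in both. The 15 neutrophil markers summed to 381 and 323 CPM in the members, 76.4 and 99.1 CPM in C1q macrophages, 24.5 and 52.0 CPM in tumour cells, and 107677 and 70415 CPM in neutrophil-type cells. Of these markers Retnlg, Ly6g, Ngp and Stfa2l1 were at 0 in the members of both libraries, and Camp in the control library. The part of neutrophil RNA in the results below was not tested. Scrublet marked 3 control members and 13 members of the SG-free library as doublets.

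Cells near the limits of the rule had these levels. Members with 1 C1q UMI (63 and 62 cells) had 1738 and 3275 CPM of Apoe, and cells just outside with 2 C1q UMIs (11 and 15 cells) had 4363 and 4082 CPM. Members with 2 UMIs of Ccr2, Vcan, F10 and Thbs1 (47 and 99 cells) had 1174 and 775 CPM of Tyrobp, a signalling adaptor of myeloid cells. Cells just outside with 1 such UMI (48 and 114 cells) had 850 and 477 CPM. The other-cell lists were reached by 6.38% and 18.2% of the members at that inner border and by 25% and 21.9% of the cells outside it.

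Against C1q macrophages the C1q-low monocytes were high in genes of blood monocytes. Members were chosen by monocyte genes and few C1q UMIs, and C1q macrophages by at least 5 C1q UMIs. Levels of genes that vary with these are thus descriptions and not results. Of 21 classical monocyte genes measured outside the rule, 19 were higher than in C1q macrophages in both libraries, as were 47.5% of all 4673 genes measured in the monocytes. Of all genes with at least 100 UMIs in the comparison, 5.33% in the control library and 5.84% in the SG-free library were at least 2-fold higher in the monocytes. Ly6c2, the surface antigen of classical monocytes, stood at 354 and 569 CPM against 22.9 and 27.1 CPM in C1q macrophages. Plac8 stood at 1945 and 2285 CPM against 169 and 190 CPM. Chil3, a chitinase-like protein of monocytes and neutrophils, stood at 113 and 236 CPM against 2.91 and 3.54 CPM. Both libraries thus held Ly6c2, Plac8 and Chil3 above the macrophage level, by log2 ratios of 3.53 to 6.06.

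Cxcl3, a chemokine that attracts neutrophils, had 780 and 286 CPM in the C1q-low monocytes and 9.12 and 7.70 CPM in C1q macrophages, log2 ratios of 6.42 and 5.21. Slpi, an inhibitor of neutrophil proteases, had 205 and 121 CPM against 2.72 and 3.75 CPM. Trem1, a receptor that amplifies inflammatory signals, had 120 and 57.3 CPM against 17.1 and 8.33 CPM. The hypoxia-inducible growth factor gene Vegfa had 219 and 215 CPM against 40.2 and 44.8 CPM. All 4 genes were higher in the monocytes in each library.

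Macrophage genes were low, in a comparison of classes that had been set apart by their C1q UMIs. Lower levels of genes that rise together with C1q describe that choice and are no check of it. Of 19 measured genes of macrophage maturation, 17 were lower than in C1q macrophages in both libraries, against 31.8% of all genes measured, and Spp1 was not among them. At least 2-fold lower levels were seen for 7.5% and 5.11% of all genes compared. Apoe, a lipid carrier, stood at 1909 and 2228 CPM against 14751 and 14215 CPM. Mrc1, the mannose receptor, stood at 316 and 332 CPM against 1813 and 1351 CPM, and the lysosomal protease gene Lgmn at 454 and 553 CPM against 2193 and 2177 CPM. Ms4a7 stood at 60.2 and 74.1 CPM against 582 and 650 CPM. Ccl8, a chemokine of tissue macrophages, was also far lower, with 16.1 and 69.6 CPM against 1641 and 2347 CPM. Free RNA from macrophages would appear in all cells, and tumour cells held 111 and 145 CPM of Apoe and 10.7 and 26.3 CPM of Ccl8.

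**Figure D1:**
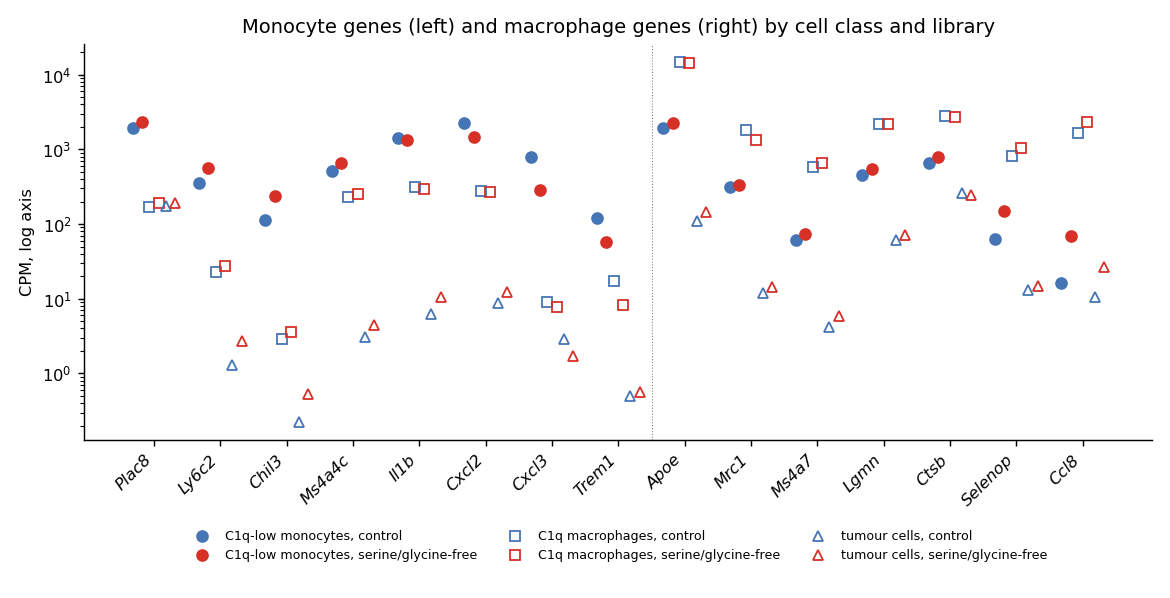
Levels of 8 monocyte genes (left of the dotted line) and 7 macrophage genes (right) in CPM on a log axis, in C1q-low monocytes (filled circles), C1q macrophages (open squares) and tumour cells (open triangles) of the control library (blue) and the SG-free library (red). In both libraries the monocytes lie above the macrophages for the left genes and below them for the right genes, and Cxcl3 in the monocytes is at 780 CPM in the control library and 286 CPM in the other.

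C1q-low monocytes made up 3.38% (3.09 to 3.69) of kept cells in the control library and 2.66% (2.45 to 2.89) in the SG-free library, a ratio of 0.789 (0.699 to 0.891). Of cells with a Ptprc UMI (the pan-leukocyte antigen CD45) they made up 13.4% and 8.30%, a ratio of 0.622 (0.541 to 0.715). Beside C1q macrophages their part differed less: 32.9% (30.5 to 35.4) of 1454 cells and 30.1% (28.0 to 32.3) of 1798 cells of both classes, a ratio of 0.915 (0.827 to 1.01). The rule counts UMIs, and the members' depth differed between the libraries, with medians of 3106 and 2020 UMIs. With every cell thinned to 2000 UMIs before the rule was applied, the 13490 control cells deep enough held 2.80% members and the 17904 SG-free cells 1.37%, a ratio of 0.488. These members were 378 and 245 cells, on which all values given below with the rule at 2000 UMIs rest. Of the members found without thinning, 427 of 478 control cells and 273 of 541 SG-free cells were that deep. The setting thus leaves out a larger part of the SG-free members, and its ratio is not a correction for depth alone.

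Of 4673 genes with at least 100 UMIs over the members of both libraries, 1.71% were at least 2-fold higher and 0.77% at least 2-fold lower under the SG-free diet, and the median log2 ratio was 0.06. Higher by any amount were 57.8% of these genes and lower 42.2%, the shares against which counts in the lists are read. Without the cells of another type these shares were 1.21% and 0.748% of 4147 genes. In the C1q-low monocytes the genes higher in the SG-free library included MHC class II and interferon-gamma response genes, and those lower included Spp1, Fn1, Arg1 and the chemokines Ccl2, Ccl24 and Cxcl3. At least 2-fold either way were 2.48% of genes, and 1.95% without the cells of another type.

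MHC class II genes, which display peptides to CD4 T cells, were higher in the SG-free library. All 10 measured genes of the list were higher, 3 of them at least 2-fold, with a median log2 ratio of 0.68 against 0.06 over all genes. H2-Aa had 1704 CPM (1642 to 1767) in the control library and 3719 CPM (3615 to 3825) in the SG-free library, a log2 ratio of 1.13 (1.06 to 1.19). H2-Eb1 had 998 and 2058 CPM, and the invariant chain Cd74 3212 and 5178 CPM, a log2 ratio of 0.69 (0.64 to 0.74). Ciita, the master regulator of class II transcription, had 34.0 and 54.3 CPM. The counting intervals of H2-Aa, H2-Eb1 and Cd74 in the libraries do not overlap.

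The shift was also seen in the share of cells. At 1000 UMIs per cell, 36.3% (32.0 to 40.8) of 474 control monocytes and 52.6% (48.2 to 57.0) of 519 monocytes from the SG-free diet held an H2-Aa UMI, with 4 and 22 cells too shallow to be thinned. Without thinning the shares were 45.4% and 57.5%. Tumour cells, which should lack H2-Aa, held it in 1.67% and 4.57% at the same depth, with median depths of 13650 and 10466 UMIs before thinning. C1q macrophages had a wider difference between the libraries, with a log2 ratio of 1.49 for H2-Aa. The ratio in the monocytes was lower than that by 0.36 on the log2 scale (-0.44 to -0.29 as monocytes minus macrophages).

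MHC class I genes, which display peptides to CD8 T cells, were all higher too: 18 of 18, none of them by 2-fold, with a median log2 ratio of 0.39. H2-K1 had 815 and 1322 CPM and the immunoproteasome subunit gene Psmb8 669 and 1017 CPM. B2m, the shared light chain, had 2421 and 2801 CPM.

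Interferon-gamma response genes had the highest median of the 21 lists over all members. All 23 measured genes were higher in the SG-free library, 9 of them at least 2-fold, against 1.71% of all genes, with a median log2 ratio of 0.73. Without the cells of another type that median was 0.729, below the 0.742 of MHC class II genes. Cxcl9, a chemokine that draws T cells, had 174 CPM (155 to 195) and 442 CPM (406 to 479), a log2 ratio of 1.34 (1.14 to 1.55). Gbp2, Gbp2b and Gbp4, guanylate-binding proteins of cell-autonomous defence, had log2 ratios of 1.18, 1.18 and 1.25. With the rule at 2000 UMIs the log2 ratio was 0.79 for Gbp2b and 0.84 for Igtp, another gene of the list, both below 2-fold. Slamf8, a surface receptor of activated myeloid cells, was low in level, with 19.1 and 66.5 CPM. Iigp1, an immunity-related GTPase, had 109 and 290 CPM, and 22.4% and 45.6% of its UMIs lay in the cells of another type, without which its log2 ratio was 0.96 in place of 1.41.

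An interferon motif was present before many of these genes. In RefSeq windows from 250 bases before to 50 bases after the start site (assembly GRCm38.p6), the core of the interferon-stimulated response element (GAAA, any 2 bases, GAAA, on either strand) was present for 9 of the 18 interferon-gamma response genes with a window and in 3.44% of all 32851 windows. A gene can have several windows. The GAS motif (TTC, any 3 bases, GAA), which reads the same on both strands, was present for 6 of the 18 genes and in 8.3% of all windows. Gbp2 and Igtp, an immunity-related GTPase with 53.7 and 126.9 CPM, are shown as examples with the 150 bases before the start site, the element in capitals. The Gbp2 stretch lies at chr3:142620513-142620662 (plus strand) with the element on the minus strand, 59 bases before the start, and the Igtp stretch at chr11:58199406-58199555 (plus strand) with the element on the plus strand, 34 bases before the start.
Gbp2: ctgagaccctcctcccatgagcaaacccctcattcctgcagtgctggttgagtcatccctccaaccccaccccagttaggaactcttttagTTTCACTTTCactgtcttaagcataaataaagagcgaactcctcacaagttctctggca
Igtp: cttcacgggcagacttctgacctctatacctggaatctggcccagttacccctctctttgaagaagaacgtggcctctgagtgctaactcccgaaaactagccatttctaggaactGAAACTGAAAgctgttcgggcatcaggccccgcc
A match of letters is a description of the window and not a measured binding site. Gbp4 and Iigp1 had no window in the table.

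Genes induced mainly by type I interferons had a smaller and less uniform shift. Of 31 measured, 20 were higher and 11 lower, near the 57.8% higher of all genes, and the median log2 ratio was 0.16. Counting intervals lay above 0 for 9 of the 31 and below 0 for 1, against 810 and 514 of all 4673 genes. The list summed to 6221 CPM in the control library and 7417 CPM in the SG-free library. The same element core was present for 14 of the 24 list genes with a window. Isg15, a ubiquitin-like antiviral protein, had 173 and 162 CPM, a log2 ratio of -0.09 (-0.36 to 0.17) that was -0.50 with the rule at 2000 UMIs. Rsad2, the antiviral enzyme viperin, had 143 and 154 CPM, and Ifit3 had 47.1 and 51.2 CPM. The intervals of Isg15, Rsad2 and Ifit3 all include 0. The list genes at least 2-fold higher were Rtp4, with 84.1 and 171 CPM and a log2 ratio of 0.70 with the rule at 2000 UMIs, and Ly6a, the stem cell antigen Sca-1. Ly6a had 163 and 475 CPM, but 48.4% and 44.5% of its UMIs lay in the cells of another type, and tumour cells held 97.7 and 219 CPM. Without those cells Ly6a had 93.7 and 307 CPM.

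**Figure D2:**
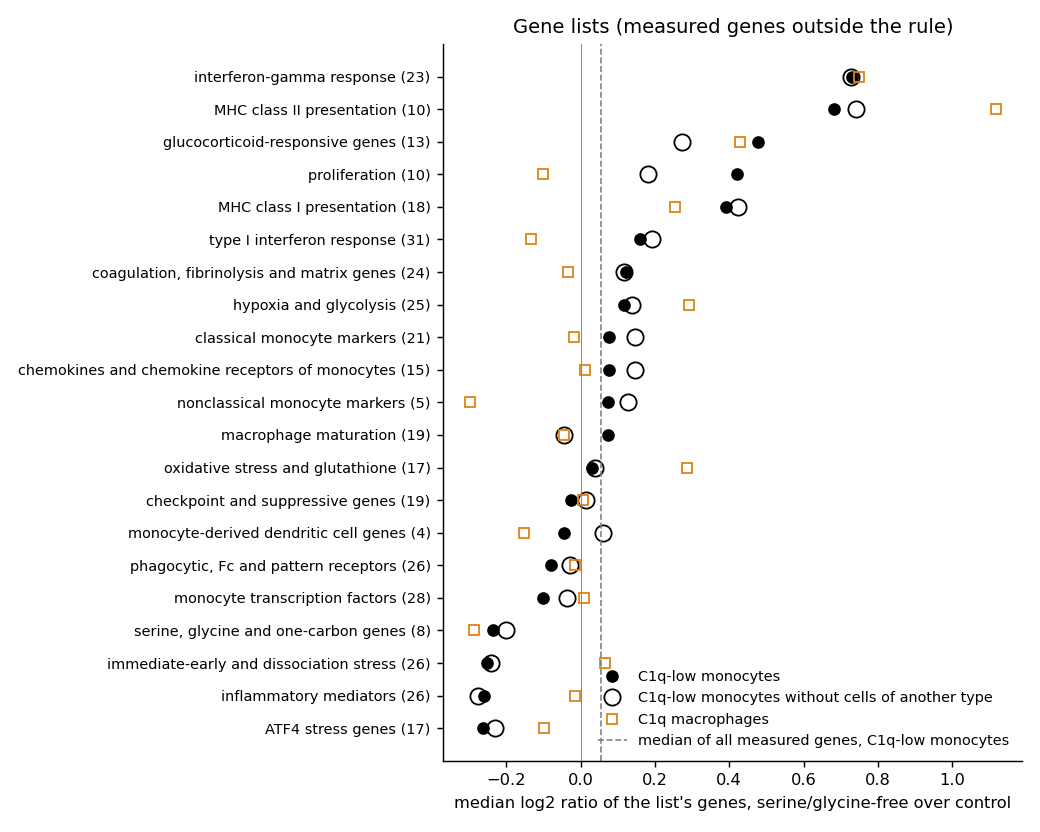
Median log2 ratio (SG-free over control) over the measured genes of each of 21 lists, with the number of genes in parentheses, in C1q-low monocytes (filled circles), in those left without the cells of another type (open circles) and in C1q macrophages (squares), beside the median of all measured genes (dashed line, 0.06). The interferon-gamma and MHC class II lists lie at 0.73 and 0.68 in the monocytes, and the ATF4, inflammatory and immediate-early lists at the lower end.

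Single genes of other lists were also higher. Nos2, the inducible nitric oxide synthase, had 12.5 CPM (7.75 to 19.1) and 74.9 CPM (60.8 to 91.3), a log2 ratio of 2.58 (1.89 to 3.34) that rests on 21 and 98 UMIs. It was seen in 1.05% and 5.97% of monocytes at 1000 UMIs, 2.09% and 8.32% without thinning, against 0.0193% and 0.101% of tumour cells. Ccl5, a chemokine for T cells and monocytes, had 18.5 and 96.3 CPM from 31 and 126 UMIs. T and natural killer cells also make Ccl5, and its log2 ratio was 2.38 over all members and 2.98 without the cells of another type. Fcgr4, an activating Fc receptor, had 129 and 290 CPM, and the complement gene C3 had 98.4 and 240 CPM. The log2 ratio of C3 was 0.98 without the cells of another type and 0.92 with every cell weighted the same, both below 2-fold. The list that holds Fcgr4, of phagocytic, Fc and pattern receptors, had 11 genes higher and 15 lower, with a median log2 ratio of -0.08 that was -0.31 with the rule at 2000 UMIs.

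Cd274, the gene of the checkpoint ligand PD-L1, had 258 CPM (234 to 283) and 367 CPM (335 to 401), a log2 ratio of 0.51 (0.32 to 0.70). The monocytes held it at 20.9% and 28.5% of cells at 1000 UMIs, and at 45.2% and 40.7% without thinning, so the direction of the shares depends on depth. Tumour cells held it in 1.51% and 1.90% at 1000 UMIs. With the rule applied at 2000 UMIs per cell the log2 ratio of Cd274 was 0.04. Entpd1, the ectoenzyme CD39, had 92.4 and 175 CPM, and its log2 ratio was 0.56 with the rule at 2000 UMIs. Over the 19 checkpoint and suppressive genes measured, 9 were higher and 10 lower, with a median log2 ratio of -0.03 that was -0.23 with the rule at 2000 UMIs.

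Genes of freshly recruited monocytes differed in both directions. Ly6c2 had 354 CPM (326 to 383) and 569 CPM (528 to 611), a log2 ratio of 0.69 (0.53 to 0.84), and was seen in 21.9% and 33.9% of monocytes at 1000 UMIs (35.2% and 46.2% without thinning) against 0.213% and 0.268% of tumour cells. Gpr141, an orphan receptor of myeloid cells, had 174 and 366 CPM, and its log2 ratio was 0.79 with the rule at 2000 UMIs. Chil3 had a log2 ratio of 1.07 (0.80 to 1.34), which was 0.21 with the rule applied at 2000 UMIs. Plac8 had 1945 and 2285 CPM and a log2 ratio of 0.23, which was -0.26 with the rule at 2000 UMIs. Over the 21 classical monocyte genes outside the rule 14 were higher and 7 lower, with a median log2 ratio of 0.08 that was -0.19 with the rule at 2000 UMIs. That setting gave 0.40 for Ly6c2. Hp, haptoglobin, had 182 and 341 CPM, but 143 of its 446 UMIs in the SG-free library came from 1 cell, and without the cells of another type it had 199 and 224 CPM.

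**Figure D3:**
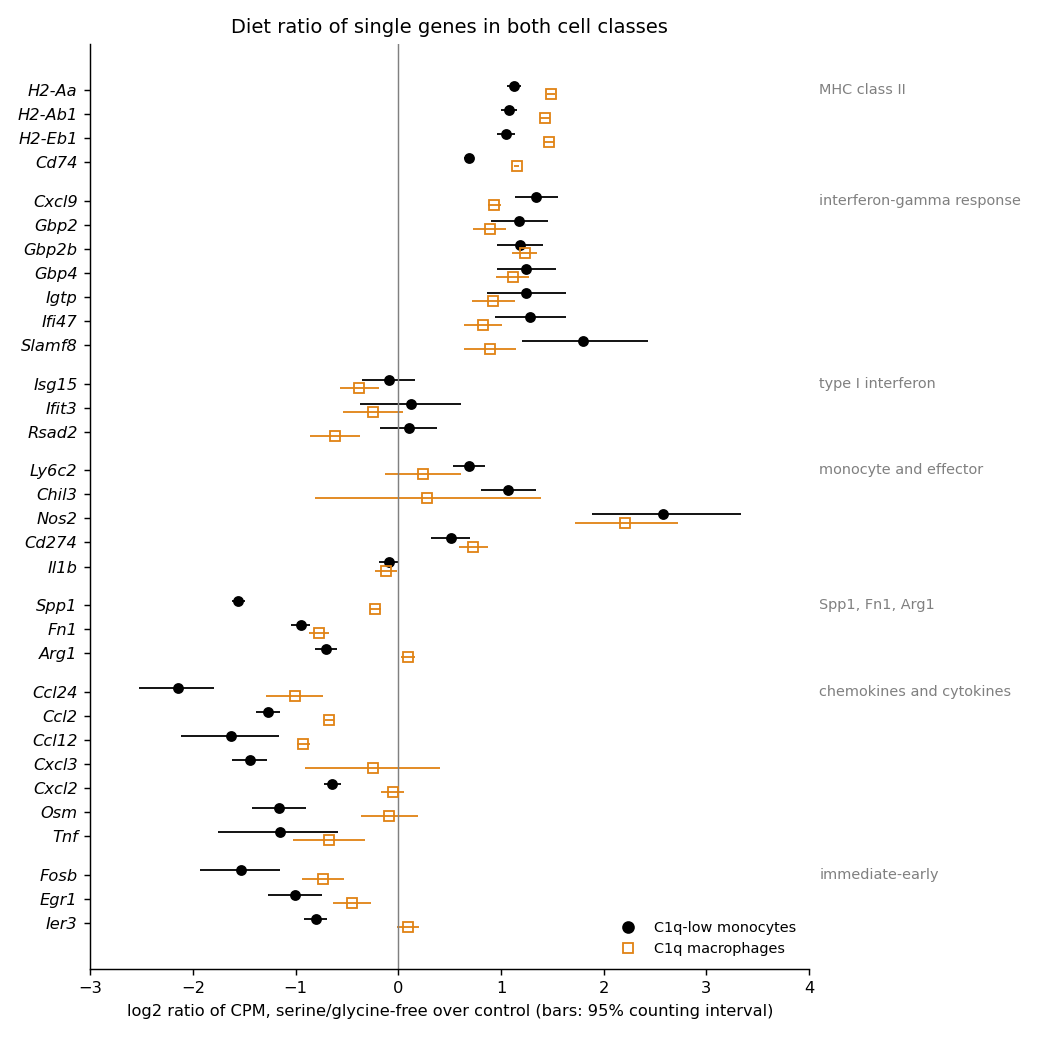
Log2 ratio of CPM (SG-free over control) with 95% counting intervals for single genes in C1q-low monocytes (black circles) and C1q macrophages (orange squares). MHC class II and interferon-gamma response genes lie right of 0 in both classes, whereas Spp1, at -1.56 in the monocytes and -0.23 in the macrophages, and Arg1, at -0.70 and 0.10, lie apart.

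Spp1, Fn1 and Arg1, genes of the matrix-forming and repair state, were lower in the SG-free library. Spp1 had 6468 CPM (6346 to 6591) and 2197 CPM (2117 to 2279), a log2 ratio of -1.56 (-1.62 to -1.50). Its share of cells at 1000 UMIs was 69.2% (64.8 to 73.3) and 48.4% (44.0 to 52.8), and 87.9% and 68.6% without thinning. Tumour cells expressed Spp1 strongly, at 10375 and 7762 CPM, and the part of free tumour RNA in its level was not tested. Neutrophil-type cells, which are the shallowest class, held 1432 and 1549 CPM, and C1q macrophages 1170 and 1001 CPM. The control monocytes lay above both of these classes and the monocytes of the SG-free library lay above them by less.

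Cells of another type held 22.1% and 31.7% of the monocytes' Spp1 UMIs, and 984 of 10847 UMIs in the control library came from 1 cell. Without the cells of another type Spp1 had 5612 and 1747 CPM, a log2 ratio of -1.68. With the rule applied at 2000 UMIs the log2 ratio was -0.97. The ratio in the monocytes was lower than that in C1q macrophages by 1.33 on the log2 scale (-1.41 to -1.25 as monocytes minus macrophages).

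Fn1 had 2111 and 1092 CPM, a log2 ratio of -0.95 (-1.04 to -0.86), and 2101 and 926 CPM without the cells of another type. Arg1 had 1224 and 751 CPM, a log2 ratio of -0.70 (-0.82 to -0.59), and was seen in 27.0% and 17.2% of monocytes at 1000 UMIs (35.2% and 21.1% without thinning) against 0.484% and 0.705% of tumour cells. In C1q macrophages Arg1 had 723 and 773 CPM, on the other side of 0 at a log2 ratio of 0.10. Plaur, the urokinase receptor, had 902 and 595 CPM. Tgfbi, a matrix protein of macrophages, had 896 and 946 CPM, with an interval that includes 0. Of the 24 coagulation, fibrinolysis and matrix genes measured, 16 were higher and 8 lower, near the share of all genes. Serpinb2, an inhibitor of plasminogen activators, was at least 2-fold higher, with 15.5 and 66.5 CPM, and 89.7% of its SG-free UMIs lay in the cells of another type. Without those cells Serpinb2 had 13.9 and 8.01 CPM.

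Chemokines differed in both directions between the libraries. Of 15 chemokines and chemokine receptors outside the rule, 8 were higher and 7 lower in the SG-free library, and the higher ones included Cxcl9, Ccl5 and Ccl8. Ccl2, the main ligand of CCR2, had 1374 CPM (1319 to 1432) and 570 CPM (530 to 613), a log2 ratio of -1.27 (-1.39 to -1.15). Ccl24, an eosinophil-attracting chemokine, had 254 and 57.3 CPM, a log2 ratio of -2.15 (-2.52 to -1.79) that was -3.39 with the rule at 2000 UMIs. Ccl12 had 113 and 36.7 CPM and Ccl7 346 and 232 CPM.

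The neutrophil chemokines Cxcl3 and Cxcl2 were lower as well. Cxcl3 had 780 CPM (739 to 824) and 286 CPM (258 to 316), a log2 ratio of -1.45 (-1.62 to -1.28). It was seen in 14.1% and 8.48% of monocytes at 1000 UMIs, 19.5% and 10.3% without thinning, and in 0.193% and 0.126% of tumour cells. Cxcl2 had 2267 and 1452 CPM, a log2 ratio of -0.64 (-0.72 to -0.56). Their promoters, which lie on the same chromosome, both hold a motif of NF-kB, a transcription factor of inflammation. The motif (GGGA, then C or A, then TTTCC, searched on both strands) is present in 0.244% of all promoter windows. It was found for 4 of the 19 inflammatory mediator genes with a window, Cxcl1, Cxcl2, Cxcl3 and Nfkbia. It was also found for 3 of the 18 interferon-gamma response genes with a window, Gbp5, Slamf8 and Ifngr2, and that list was higher in the SG-free library. The 150 bases before the start sites of Cxcl2 and Cxcl3 are given with the motif in capitals. The Cxcl2 stretch lies at chr5:90903749-90903898 (plus strand, motif 97 bases before the start) and the Cxcl3 stretch at chr5:90785951-90786100 (plus strand, motif 73 bases before the start).
Cxcl2: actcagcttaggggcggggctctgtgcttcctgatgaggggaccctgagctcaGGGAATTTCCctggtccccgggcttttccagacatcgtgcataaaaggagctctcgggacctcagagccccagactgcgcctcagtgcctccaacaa
Cxcl3: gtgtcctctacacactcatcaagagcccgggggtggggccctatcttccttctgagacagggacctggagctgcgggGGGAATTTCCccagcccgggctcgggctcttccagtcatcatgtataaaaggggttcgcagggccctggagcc
Nfkbia itself, the feedback inhibitor of NF-kB, had 650 and 563 CPM.

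Of 26 inflammatory mediators measured, 17 were lower and 9 higher, where 42.2% of all genes were lower. The list had 5 genes at least 2-fold lower and 2 at least 2-fold higher, with a median log2 ratio of -0.26. Osm, a cytokine of the interleukin-6 family, had 289 and 129 CPM, and Tnf had 59.6 and 26.8 CPM. Il1rn, the interleukin-1 receptor antagonist, had 150 and 69.6 CPM, whereas Il1b itself had 1400 and 1312 CPM, a log2 ratio of -0.09 (-0.18 to -0.004) that lay above 0 under some settings. The 5 lower by 2-fold or more were Cxcl3, Osm, Tnf, Il1rn and Ccl3, and Nos2 was among those higher. Saa3, the other gene past 2-fold higher, had 48 and 155 CPM over all members and 52.5 and 17.8 CPM without the cells of another type.

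Immediate-early genes, which answer to signals within minutes and also to tissue dissociation, were lower for 17 of 26, with a median log2 ratio of -0.25. Fosb had 157 and 54.3 CPM, Egr1 261 and 130 CPM and Ier3 1290 and 738 CPM. In C1q macrophages the median of the same list was 0.07 and Ier3 had 272 and 290 CPM. Handling of the samples and diet cannot be told apart here.

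Most measured genes of amino acid metabolism and its stress response were lower, none of them by 2-fold. Of 8 measured genes of serine, glycine and one-carbon metabolism 7 were lower, with a median log2 ratio of -0.24. With the rule at 2000 UMIs that median was 0.00412. Mthfd2, a mitochondrial folate enzyme, had 89.4 and 73.4 CPM, and Slc38a2, a neutral amino acid transporter, 226 and 180 CPM, a log2 ratio of -0.33 that was -0.76 with the rule at 2000 UMIs. Of 17 genes of the ATF4 stress response, which is set off by amino acid shortage, 15 were lower and 2 higher, where 42.2% of all genes were lower. Their median of -0.262 was the lowest of the 21 lists over all members, next to -0.261 for inflammatory mediators. Without the cells of another type it was -0.23, against -0.28 for inflammatory mediators and -0.24 for immediate-early genes. With the rule at 2000 UMIs the ATF4 median was -0.16. Atf4 had 170 and 142 CPM, and the asparagine synthetase gene Asns had 58.4 and 34.4 CPM from 98 and 45 UMIs, a log2 ratio of -0.76 that was -0.17 with the rule at 2000 UMIs. Slc7a11, the cystine transporter, had 268 and 188 CPM in the monocytes and 22.9 and 32.1 CPM in C1q macrophages. Its log2 ratio in the monocytes was -0.51, and -0.87 with the rule at 2000 UMIs. Ratios with both intervals off 0 and on opposite sides in the monocytes and the macrophages were seen for 1.46% of 4583 genes.

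Of 25 glycolysis and hypoxia genes 17 lay higher in the SG-free library, and their median of 0.12 was close to the 0.06 of all genes. Their shifts were small but mostly to one side. Counting intervals lay above 0 for 10 of the 25 and below 0 for 0, against 810 and 514 of all 4673 genes. In C1q macrophages 22 of 23 of them lay higher, at a median of 0.29. Slc2a1, the glucose transporter GLUT1, had 182 and 193 CPM, and Ldha, lactate dehydrogenase A, 801 and 886 CPM. Glucocorticoid-responsive genes were higher for 10 of 13, with a median of 0.48 that was 0.27 without the cells of another type. Fkbp5, a chaperone induced by glucocorticoids, had 47.1 and 101 CPM.

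The C1q-low monocytes differed widely among themselves. After the cells of another type were left out and each cell was thinned to 1000 UMIs, 449 and 482 cells were placed by their UMIs of H2-Aa, H2-Ab1, H2-Eb1 and Cd74. Cells with 3 or more such UMIs made up 43.2% (38.6 to 47.9) in the control library and 60.2% (55.6 to 64.6) in the SG-free library. Cells with 0 made up 37.6% and 26.6%, and those with 1 to 2 made up 19.2% and 13.3%. Most cells thus lay in the lowest or the highest bin in both libraries. The highest bin is open-ended, so the small share between them follows in part from the limits chosen. The counts had medians of 2 and 7 UMIs and reached 60 and 82 UMIs. The bins are ranges of a count and not cell types.

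**Figure D4:**
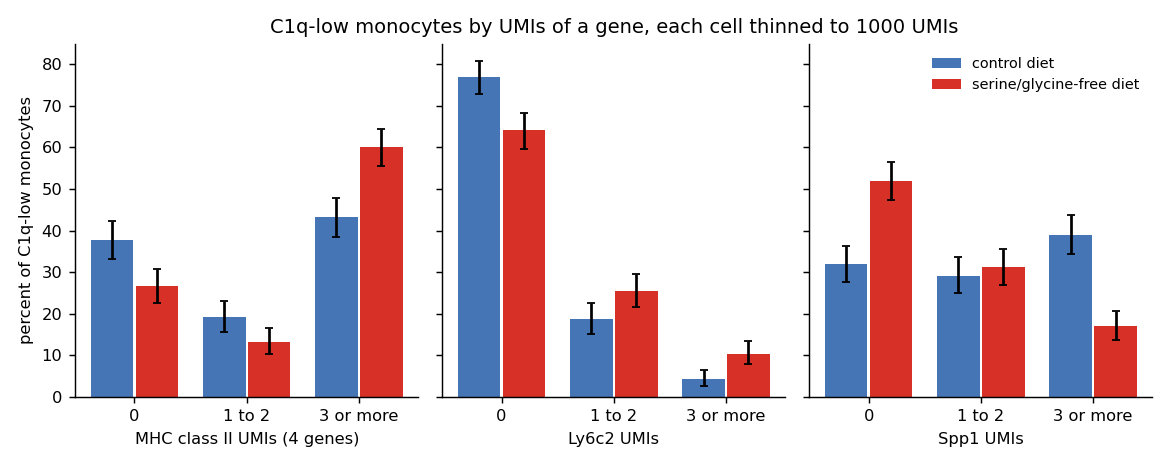
Percent of C1q-low monocytes (without cells of another type, thinned to 1000 UMIs, 449 control and 482 SG-free cells) by UMIs of 4 MHC class II genes, of Ly6c2 and of Spp1, with exact 95% binomial intervals, for the control library (blue) and the SG-free library (red). The SG-free library holds more cells with 3 or more MHC class II UMIs (60.2% against 43.2%) and fewer with 3 or more Spp1 UMIs (17.0% against 39.0%).

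Cells with 3 or more MHC class II UMIs held less Cxcl3, Arg1, Ccl2 and Chil3 than cells with 0 in both libraries. Cxcl3 was 1260 CPM in control cells with 0 class II UMIs and 201 CPM in those with 3 or more, and 664 and 162 CPM in the SG-free library. Arg1 was 1828 and 613 CPM in the control library and 1336 and 559 CPM in the other. Ccl2 was 2130 and 753 CPM in the control library and 711 and 414 CPM in the other. Chil3 was 284 and 46.4 CPM in the control library and 633 and 148 CPM in the other. Apoe and Cxcl9 ran the other way: Apoe was 1414 and 3536 CPM in the control library and 1242 and 3024 CPM in the other. Cxcl9 was 47.3 and 237 CPM in the control library and 39.1 and 603 CPM in the other. Spp1 was 6053 and 3603 CPM in the control library and 1508 and 1314 CPM in the other, where the intervals of those bins overlap, and it was highest, at 2859 CPM, in cells with 1 to 2 class II UMIs.

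Within a class II bin the libraries also differed. Among cells with 0 class II UMIs, the control library was higher for Ccl2 (2130 against 711 CPM), Spp1 (6053 against 1508 CPM), Cxcl3 (1260 against 664 CPM) and Arg1 (1828 against 1336 CPM). Among cells with 3 or more it was higher for Ccl2 (753 against 414 CPM) and Spp1 (3603 against 1314 CPM). In those cells the intervals of the libraries overlap for Cxcl3 (201 and 162 CPM) and Arg1 (613 and 559 CPM). Il1b lay between 1555 and 1872 CPM in every bin of both libraries.

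**Figure D5:**
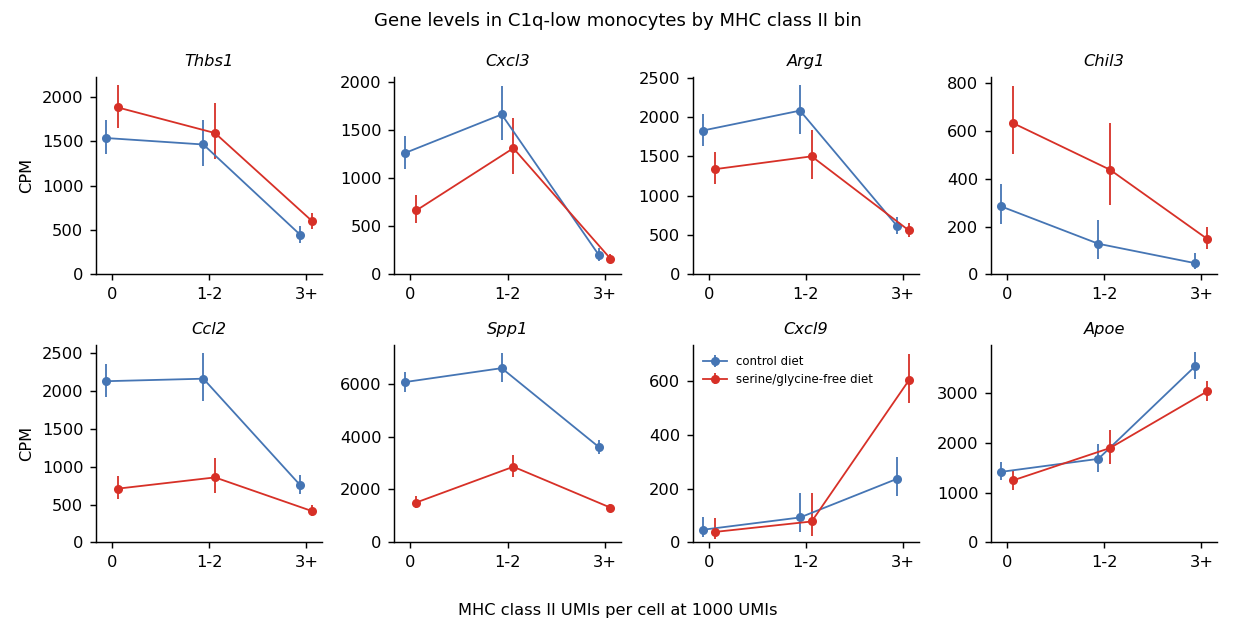
Levels in CPM of 8 genes in C1q-low monocytes with 0, 1 to 2 or 3 or more MHC class II UMIs (without cells of another type, thinned to 1000 UMIs) in the control library (blue) and the SG-free library (red), with 95% counting intervals. Cxcl3, Arg1 and Chil3 are lower and Cxcl9 and Apoe higher in the class II high cells of both libraries, and Ccl2 and Spp1 are lower in the SG-free library in every bin. Thbs1 is a gene of the rule.

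Cells were also placed by Ly6c2, which monocytes lose in tissue. At 1000 UMIs, cells with 0 Ly6c2 UMIs made up 77.1% and 64.1%, those with 1 to 2 made up 18.7% and 25.5%, and those with 3 or more made up 4.23% (2.57 to 6.53) and 10.4% (7.80 to 13.4). Cells with 3 or more Ly6c2 UMIs, 19 and 50 in number, held more type I interferon response RNA: the list summed to 22842 and 15240 CPM in them and to 5376 and 6472 CPM in cells with 0 Ly6c2 UMIs. Plac8 was 4421 and 4880 CPM in the highest bin and 1936 and 2337 CPM in the lowest. Arg1 was 105 and 420 CPM in the highest bin and 1630 and 1201 CPM in the lowest, and Cxcl3 158 and 80 CPM against 1078 and 650 CPM. The highest control bin rests on 19 cells. The 4 MHC class II genes were somewhat lower in the Ly6c2-high cells, summing to 6474 CPM in the highest and 8020 CPM in the lowest control bin, and to 12300 and 15748 CPM in the SG-free library.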

How the data were processed

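The deposited values are raw counts of UMIs per gene and barcode, which the authors produced using Cell Ranger, version 7.0.1 per the file headers and 2.2.2 with genome mm10 per the submitters' processing notes. The sources used here do not state an annotation release or whether intronic reads were included. The libraries held 14774 and 20662 barcodes and 173785388 and 173592046 UMIs. Rows of 1 symbol were summed. The UMIs of all cells in a class were added up and expressed as CPM with exact Poisson intervals; ratios carry exact conditional binomial intervals, shares Clopper-Pearson intervals, and differences between classes a normal interval on the log scale, all at 95% and covering counting error only. Genes needed 100 UMIs over both libraries' members. Cells were thinned to 1000 UMIs for shares and bins. No test was run, because each diet had 1 library. The calculation of the ratio and its interval was checked on simulated Poisson counts with known fold changes. Such counts hold no variation between animals. Doublets were marked with Scrublet in scanpy 1.11.5 and kept. Python 3.11.15, numpy 2.4.6, pandas 2.3.3, scipy 1.17.1 and matplotlib 3.10.9 were used.

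The members and the 21 gene lists were chosen with earlier results of these data known, so no pattern in them is independent support. List genes Cxcl11, Mx1, Mx2, Lilrb4b, Clec7a and Clec6a were not analysed here. Named genes were the 12 highest and 12 lowest by diet ratio (ranked by the interval bound nearest 0), the 15 highest and 15 lowest against C1q macrophages, up to 4 with the largest ratio and 2 with most UMIs of each list, and the classical monocyte markers; other genes named were chosen after their values were seen. Leaving out cells of another type and binning by Spp1 were added after seeing the data. Alternatives changed the rule, the doublet and mitochondrial limits, the scaling, the weights of cells, the pseudocount, the minimum count and the thinning depth. Some results were left out and are not reported here.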

Additional observations from a re-analysis of the deposited data

Results flagged for a closer look

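For 11 of the listed or named genes the diet ratio lay on opposite sides of 0 in C1q-low monocytes and in C1q macrophages, with both counting intervals leaving out 0, also without the cells of another type. Over all 4583 genes measured in both classes this was so for 1.46%, counted without that last condition. The 11 are not given as a share of the listed or named genes, so they cannot be set against that percentage. The difference between the classes was not tested, since each diet had 1 library. Lower in the monocytes and higher in the macrophages under the SG-free diet were Arg1 (log2 ratio -0.70 in monocytes, 0.10 in macrophages), Slc7a11 (-0.51 and 0.49), Zfp36 (-0.29 and 0.27), Nfkbia (-0.21 and 0.54) and Cebpb (-0.13 and 0.41). Higher in the monocytes and lower in the macrophages were Mki67 (1.04 and -0.27), F13a1 (0.48 and -0.41), Zeb2 (0.32 and -0.06), Calr (0.28 and -0.17), Ctsb (0.25 and -0.05) and Apoe (0.22 and -0.05). Mki67, a gene of dividing cells, rests on 61 and 98 UMIs in the monocytes, and its log2 ratio was 0.78 without the cells of another type, 0.56 with 0 UMIs of Hmga2 and Rhox5, and 1.59 with 0 C1q UMIs. That of Cebpb in the monocytes was -0.0218 with 0 UMIs of Hmga2 and Rhox5, -0.0332 with 4 UMIs of Ccr2, Vcan, F10 and Thbs1, and -0.40 with the rule at 2000 UMIs, so its side of 0 was kept but its size depends on the setting. The log2 ratio of Apoe in the monocytes was 0.08 with every cell weighted the same and 0.44 with the rule at 2000 UMIs.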

How the results depend on the processing

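No paired analysis was possible because each diet had 1 library, and no replicate could be left out. The ratio of the members' shares of kept cells (0.789) was 0.638 when 4 UMIs of Ccr2, Vcan, F10 and Thbs1 were asked for and 0.488 with the rule at 2000 UMIs. The 80 genes at least 2-fold higher became 47 with those 4 UMIs, 52 with 0 UMIs of Hmga2 and Rhox5, 50 without cells of another type, 50 with a pseudocount of 10 CPM, 301 with a minimum of 30 UMIs per gene and 22 with 300. The 36 genes at least 2-fold lower became 22 with the pseudocount and 131 and 16 with those minimums. Ratios of the shares of cells with an Spp1 UMI (0.699) were 0.838 at 2000 UMIs and 0.781 without thinning, and that of cells with 3 or more Spp1 UMIs (0.436) was 0.599 at 2000 UMIs. The cause was not tested, except that other minimums admit other numbers of genes.

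Log2 ratios changed side as follows. Without cells of another type: Ccl11 -1.58, Fabp4 -1.003, Ftl1 0.0100, Igfbp7 -3.25, Saa3 -1.56, Serpinb2 -0.80, Serping1 -1.64. With the rule at 2000 UMIs: Fabp4 -1.52, Gzmf -1.52, Hp -0.19, Mgl2 0.52, Mgst1 -0.0220, Plac8 -0.26, S100a4 0.17, Saa3 -0.71, and the median of the serine, glycine and one-carbon list 0.00412. With 3 UMIs of Ccr2, Vcan, F10 and Thbs1: Gzma -0.0662, Gzmf -0.13. With 4: Igfbp7 -0.35, Il1b 0.11, S100a4 0.00353, Thbs1 0.0236. Il1b was 0.0402 with 0 UMIs of Hmga2 and Rhox5 and 0.0107 with every cell weighted the same. Of the log2 ratios of 179 named genes recomputed under the alternatives, 2532 stayed within the counting interval of the reported value, 23 whose interval left out 0 changed side, and 253 others moved outside the interval. Of the list medians 349 stayed within the interval taken from the list's genes, 4 moved outside it and 1 changed side. For list medians that last call rested on the size of the median and not on its interval. The 1 list, of serine, glycine and one-carbon genes, had a median interval of -0.75 to 0.40, which includes 0.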

Other observations

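C1q-low monocytes with 3 or more Spp1 UMIs differed from those with 0 in some monocyte and macrophage genes in both libraries, but not in all. The bins were chosen after the data were seen. At 1000 UMIs, without the cells of another type, cells with 3 or more Spp1 UMIs made up 39.0% (34.4 to 43.7) of control monocytes and 17.0% (13.8 to 20.7) of those from the SG-free diet, and cells with 0 made up 31.8% and 51.9%. Arg1 was 2394 and 2476 CPM in the Spp1-high cells and 573 and 416 CPM in cells with 0 Spp1 UMIs. Fn1 was 3320 and 1646 CPM against 958 and 648 CPM, and Mrc1 583 and 646 CPM against 252 and 188 CPM. Plac8 was 709 and 610 CPM against 3881 and 3832 CPM, with 2885 and 2700 CPM in cells with 1 to 2 Spp1 UMIs. Other genes of these kinds did not follow. The classical monocyte genes outside the rule summed to 15589 and 14085 CPM against 15748 and 15932 CPM. Il1b was 1897 and 1890 CPM against 1671 and 1596 CPM. The macrophage gene Apoe was lower in the Spp1-high cells, with 1777 and 1256 CPM against 2524 and 2828 CPM. In the Spp1-high bin Ccl2 was 2937 and 1134 CPM and Cxcl3 1743 and 695 CPM. Spp1 itself was 12103 and 6805 CPM there, so the bin does not match the libraries on Spp1. The hypoxia and glycolysis list summed to 15297 and 18305 CPM in the Spp1-high cells and 9594 and 11636 CPM in cells with 0 Spp1 UMIs. Tumour cells express Spp1, and the part of free RNA in these bins was not tested.

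Some genes with the widest ratios lay largely in cells of another type. Fabp4, a lipid carrier of endothelial cells, had 35.8 and 344 CPM, with 96.4% of its UMIs in the SG-free library in the cells of another type. Sfrp2, a fibroblast gene, had all its UMIs in those cells. Rgs5 and Acta2, genes of mural cells, had 73.9 and 132 CPM in the control library and 9.17 and 29.0 CPM in the other. No mural list was among those used to find cells of another type, which held 41.9% of the control UMIs of Rgs5 and 52.5% of those of Acta2. Without these cells the log2 ratio of Rgs5 was -4.75 in place of -3.01 and that of Acta2 -4.71 in place of -2.18. A single control cell held 44 of the 124 control UMIs of Rgs5, which was seen in 5 control cells and 3 cells of the other library.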
